A study of Rattus norvegicus with 6 samples.

Results

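The 6 receptor genes described here carry the inhibitory messages that the hypothalamus sends to pituitary cells: the dopamine receptors Drd2 and Drd4 and the somatostatin receptors Sstr1, Sstr2, Sstr3 and Sstr5. They were taken by gene symbol from the count tables, which list 33294 genes, and all 6 were found and passed the filter on low counts. RNA was sequenced from the pituitary glands of 6 male Sprague-Dawley rats aged 11 weeks, with 1 library per rat. The nicotine group held 3 offspring of dams that received 6 mg/kg of nicotine per day as the tartrate through an osmotic mini-pump under the skin, and the control group held 3 offspring of dams whose pumps held saline. The pump was placed during pregnancy and was of a type made to run past the birth, and the labels do not say which rats shared a litter.

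Dopamine released from hypothalamic neurons reaches the pituitary through the portal blood and acts on D2 receptors, which hold back prolactin release from lactotrophs and hormone release from the melanotrophs of the intermediate lobe. Somatostatin restrains growth hormone release from somatotrophs and thyrotropin release from thyrotrophs. The receptors described here couple to inhibitory G proteins, which lower cyclic AMP, open inwardly rectifying potassium channels and reduce calcium entry.

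Totals lay between 46239801 and 85977002 counts in the nicotine libraries and between 28318383 and 54309256 in the control libraries, and the median totals differed 1.70-fold. The study lists read numbers for its pituitary libraries that are lower in the nicotine than in the control library for each of the replicate numbers, which is the opposite order to these totals. The totals are nearly proportional to the listed read numbers if the 2 groups are exchanged, and not as labelled. Whether the labels or the list are in error was not settled here. The groups below are those of the deposited labels, and every direction given rests on them and would turn if they were exchanged. Nicotine replicate 2 stood furthest from the rest, with a mean distance of 90.8 to the other libraries against 72.0 to 80.7 for the other 5. Pituitary hormone genes dominated all 6 libraries, with Gh1 (growth hormone) between 52429 and 115788 CPM (counts scaled to a common library total, with TMM factors between libraries), while the germ cell genes Ddx4 and Acrv1 had 0 counts and Prm1, Prm2 and Tnp1 had at most 3 counts in a library. A gland in bulk does not show whether a lower level reflects fewer cells of a type or less RNA per cell, and the 2 cannot be told apart here.

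The sequences just upstream of 4 of these genes are shown because their mRNAs had the 4 patterns described below: a wide spread among rats in both groups for Sstr2, a spread ordered differently for Drd2, a high level in 1 library for Sstr3 and an even level in the controls for Sstr5. Each is the 250 bases before the RefSeq transcription start in the rat assembly GRCr8, which is a later build than the rn7 to which the reads were mapped, and is written 5′ to 3′ on the strand of the gene. They lie at chr10:99163103-99163352 on the plus strand for Sstr2, chr8:58605153-58605402 on the plus strand for Drd2, chr7:111980251-111980500 on the minus strand for Sstr3 and chr10:15017470-15017719 on the minus strand for Sstr5. Capitals mark the matches to a full cyclic AMP response element (CRE, TGACGTCA) or a GC box (GGGCGG or its reverse CCGCCC).
Sstr2: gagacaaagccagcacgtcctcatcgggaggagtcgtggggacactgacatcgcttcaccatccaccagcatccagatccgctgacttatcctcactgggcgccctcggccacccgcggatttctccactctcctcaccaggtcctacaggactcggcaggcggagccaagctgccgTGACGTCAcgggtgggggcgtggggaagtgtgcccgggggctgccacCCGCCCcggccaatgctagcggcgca
Drd2: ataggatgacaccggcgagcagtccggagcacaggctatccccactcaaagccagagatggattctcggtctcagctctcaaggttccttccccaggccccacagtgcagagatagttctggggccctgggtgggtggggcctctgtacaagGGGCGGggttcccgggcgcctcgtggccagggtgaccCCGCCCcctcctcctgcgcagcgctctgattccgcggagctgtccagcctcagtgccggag
Sstr3: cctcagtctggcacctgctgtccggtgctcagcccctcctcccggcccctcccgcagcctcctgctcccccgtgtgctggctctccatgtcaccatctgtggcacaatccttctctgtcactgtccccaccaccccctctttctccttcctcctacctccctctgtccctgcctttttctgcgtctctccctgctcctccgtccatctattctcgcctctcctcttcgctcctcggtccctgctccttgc
Sstr5: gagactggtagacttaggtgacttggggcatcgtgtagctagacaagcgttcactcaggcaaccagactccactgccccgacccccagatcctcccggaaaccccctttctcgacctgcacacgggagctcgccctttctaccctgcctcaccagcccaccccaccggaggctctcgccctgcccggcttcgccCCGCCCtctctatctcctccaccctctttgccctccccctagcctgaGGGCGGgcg

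The Sstr2 sequence holds 1 full CRE, which ends 66 bases before the start, and 1 GC box. A full CRE occurs in 1.59% of the 33465 rat promoters of this length, counting both strands, and in none of the other 5 receptor promoters. The GC box, present in 30.5% of all promoters, occurs 2 times each upstream of Drd2 and Sstr5 and is absent upstream of Sstr3, Drd4 and Sstr1. The Sstr2 sequence also has the most CpG dinucleotides, 20 against 6 to 14 in the other 5 and a median of 5 over all promoters. No TATAAA (12.9% of all promoters) and no TATNCAT, a core of sites for the pituitary factor POU1F1 (8.73%), was found on either strand of the 6 sequences. The shorter CRE core TGACG, which is also part of the full element, occurs in 18.2% of promoters and, apart from Sstr2, upstream of Drd4 and Sstr1. These are matches of letters, and binding was not measured. A link between these sequences and the patterns of the mRNAs was not tested.

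None of the 6 receptors was called different between the nicotine and control groups. In edgeR's quasi-likelihood test across 17292 genes, 0 genes, or 0%, met both criteria for a call (adjusted p below 0.1, change of more than 1.5-fold), and the smallest adjusted p of any gene was 0.103. Without adjustment, 1 of the 6 receptors, Sstr3, had a p under 0.05, with a higher level after nicotine. Among all genes 1062, or 6.14%, had such a p, of which 3.13% of genes were higher and 3.01% lower after nicotine. DESeq2 called 61 genes, or 0.339% of the 18001 genes to which it gave an adjusted p, and none of the receptors. The libraries of the 2 groups overlapped for all 6 receptors, whereas 11.3% of all genes had groups that did not overlap. The log2 fold changes, given as nicotine over control, were above 0 for 4 receptors and below 0 for 2, with a median of 0.20 against 0.007 over all genes. Levels are not compared between receptors, since the tables give no lengths by which to scale them.

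**Figure D1:**
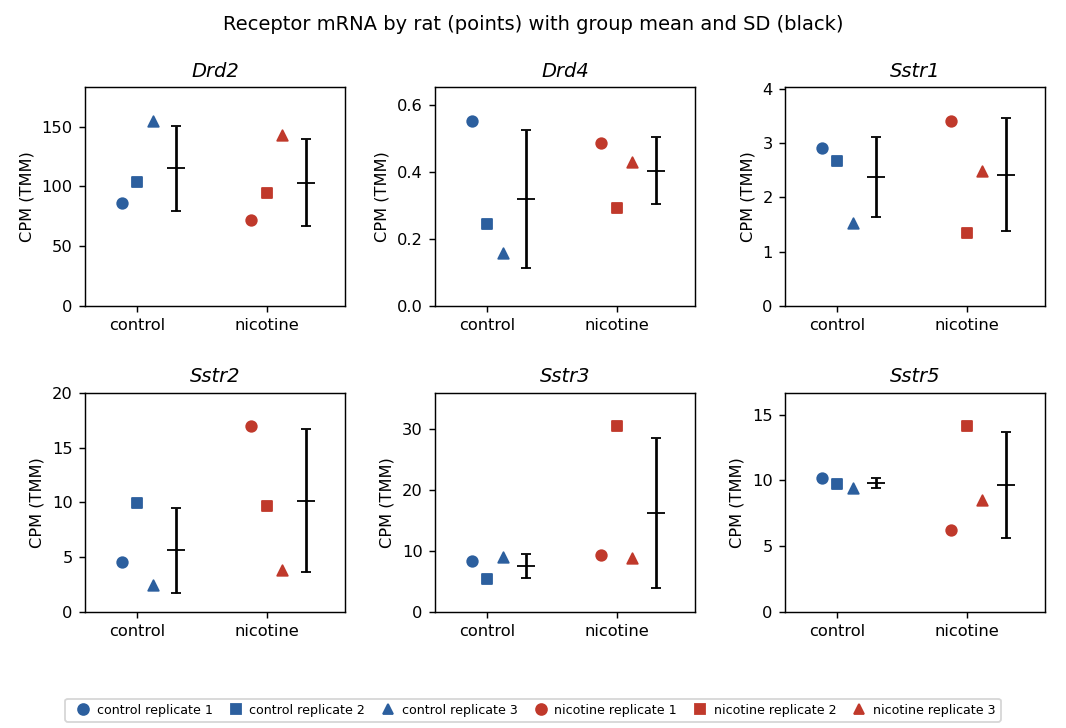
Level of each receptor mRNA in CPM after TMM scaling (vertical axes, starting at 0) in each of the 3 control (blue) and 3 nicotine (red) rats, with group mean and SD in black. The groups overlap in every panel, Sstr3 has 1 high point at 30.4 CPM, and the 3 Sstr5 controls lie between 9.43 and 10.2 CPM.

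Drd2, the D2 receptor through which dopamine acts on lactotrophs and melanotrophs, was measured at 71.7, 94.6 and 143 CPM in nicotine replicates 1, 2 and 3 and at 86.5, 103 and 155 CPM in control replicates 1, 2 and 3. The 2 highest libraries were replicate 3 of each group, and the highest level was 2.16 times the lowest. Nicotine rats averaged 103 ± 36.6 CPM and control rats 115 ± 35.7 CPM (SD, n = 3 each). The log2 fold change was -0.16 (SE 0.27, 95% interval -0.75 to 0.44, adjusted p = 0.923 in edgeR's test), and an exact two-sided permutation test gave p = 0.7, where 3 rats against 3 cannot give less than 0.1.

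Drd4, the D4 receptor, was near the limit of these libraries. Nicotine libraries held 23, 27 and 26 counts and control libraries 15, 13 and 6 counts, or 0.488, 0.293 and 0.430 CPM against 0.554, 0.246 and 0.158 CPM. The 6 counts of control replicate 3 carry an exact 95% Poisson interval of 0.0582 to 0.345 CPM and the 15 counts of control replicate 1 one of 0.310 to 0.914 CPM, and both cover counting error only. The groups overlapped, and the log2 fold change of 0.40 (SE 0.52, 95% interval -0.75 to 1.56) had an adjusted p of 0.893 in edgeR's test.

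Of the other receptors of these families, Sstr4 had 39 counts over all 6 libraries, Drd1 had 3, Drd3 had 1 and Drd5 had 0. A level of 3 counts over all 6 libraries, used here as the floor for a count of 0, corresponds to 0.00945 CPM. None of these 4 genes passed the filter, and no difference between groups was detectable for them at this depth.

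Sstr1, a somatostatin receptor coupled to inhibitory G proteins, was measured at 3.42, 1.34 and 2.49 CPM after nicotine and at 2.92, 2.67 and 1.53 CPM in controls. Low and high libraries occurred in both groups. The log2 fold change was 0.00064 (SE 0.39, 95% interval -0.87 to 0.87, adjusted p = 0.999 in edgeR's test), an interval that reaches changes of nearly a doubling in either direction.

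Sstr2, a main receptor for somatostatin on somatotrophs, was measured at 17.0, 9.69 and 3.83 CPM after nicotine and at 4.54, 9.95 and 2.40 CPM in controls. Among the 6 receptors it had the widest range, with a highest level 7.06 times the lowest, and both groups contained low libraries (replicate 3 of each) and higher ones (nicotine replicates 1 and 2, control replicate 2). Nicotine rats averaged 10.2 ± 6.58 CPM and control rats 5.63 ± 3.89 CPM (SD, n = 3 each). The log2 fold change of 0.82 (SE 0.54, 95% interval -0.36 to 2.00) had an adjusted p of 0.832 in edgeR's test, with an exact permutation p of 0.5. It ranged from 0.25 without nicotine replicate 1 to 1.56 without control replicate 2.

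Sstr3 was the receptor with the largest log2 fold change, and 1 library carried most of it. It was measured at 9.33, 30.4 and 8.72 CPM after nicotine and at 8.35, 5.26 and 8.93 CPM in controls. Nicotine replicates 1 and 3 lay close to control replicates 1 and 3, and nicotine replicate 2 stood more than 3 times above every other library. Nicotine rats averaged 16.1 ± 12.3 CPM and control rats 7.51 ± 1.97 CPM (SD, n = 3 each). The log2 fold change was 1.12 (SE 0.44, 95% interval 0.15 to 2.09, p = 0.0275 and adjusted p = 0.806 in edgeR's test), and the exact permutation test gave p = 0.2. Without nicotine replicate 2 the log2 fold change was 0.27.

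Sstr5, the other receptor known for restraining somatotrophs, was measured at 6.24, 14.1 and 8.53 CPM after nicotine and at 10.2, 9.74 and 9.43 CPM in controls. The 3 controls lay within the range of the nicotine libraries, 2 of which were below and 1 above all controls. The coefficient of variation was 3.91% in controls and 42.1% after nicotine, a difference in spread that was not tested. Nicotine rats averaged 9.63 ± 4.06 CPM and control rats 9.79 ± 0.383 CPM (SD, n = 3 each). The log2 fold change was -0.01 (SE 0.28, 95% interval -0.62 to 0.59, adjusted p = 0.996 in edgeR's test), and it ran from -0.41 when nicotine replicate 2 was left out to 0.22 when nicotine replicate 1 was.

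**Figure D2:**
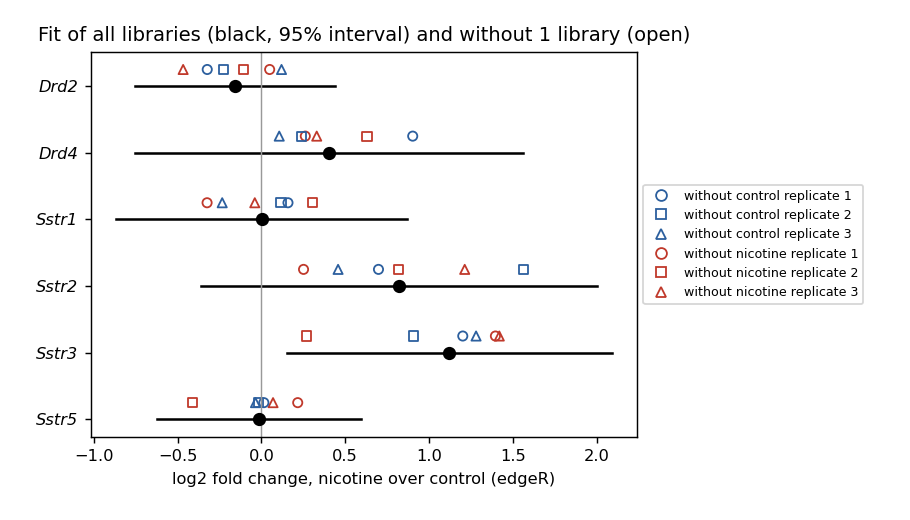
Log2 fold change of nicotine over control for each receptor (horizontal axis) from edgeR with its 95% interval (black) and the same value after leaving out 1 library (open symbols). Only the Sstr3 interval, 0.15 to 2.09, lies above 0, and the Sstr3 value without nicotine replicate 2 is 0.27.

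The level of Sstr3 relative to Sstr5 within a library does not depend on the scaling between libraries. The log2 ratio of their counts was 0.58, 1.10 and 0.03 after nicotine and -0.29, -0.89 and -0.08 among the controls. The lowest nicotine library exceeded the highest control, with a difference of 0.99 between the group means. The exact permutation test gave p = 0.1, the smallest it can give, and 0.857 after adjustment over the 15 pairs of receptors. This was the only 1 of the 15 pairs whose groups did not overlap. Without any group difference such a separation has a probability of 0.1 for each pair, and 1 of 15 does not exceed it. Among all genes 11.3% had groups that did not overlap. The difference between the group means of this ratio was 0.73 without nicotine replicate 2 and between 0.73 and 1.26 without any one library.

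Each receptor with at least a modest count was also set against hormone or lineage genes of the same library, in 24 ratios. Sstr5 to Gh1 was lower in all 3 nicotine libraries, with log2 ratios of -13.03, -13.00 and -13.31 against -12.79, -12.81 and -12.44 in controls, a difference of -0.44. Sstr3 to Pomc, the precursor of corticotropin and melanotropin, was higher in all 3, by 1.61 on the log2 scale and by 0.76 without nicotine replicate 2. For both the exact permutation p was 0.1 and the value adjusted over the 24 ratios was 0.8. These were the only 2 of the 24 ratios whose groups did not overlap, which does not exceed a share of 0.1. Pomc itself was 27330, 20412 and 46404 CPM after nicotine and 45091, 36103 and 71827 CPM in controls. Drd2 to Pomc differed by 0.55 with overlapping groups (exact permutation p = 0.2).

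**Figure D3:**
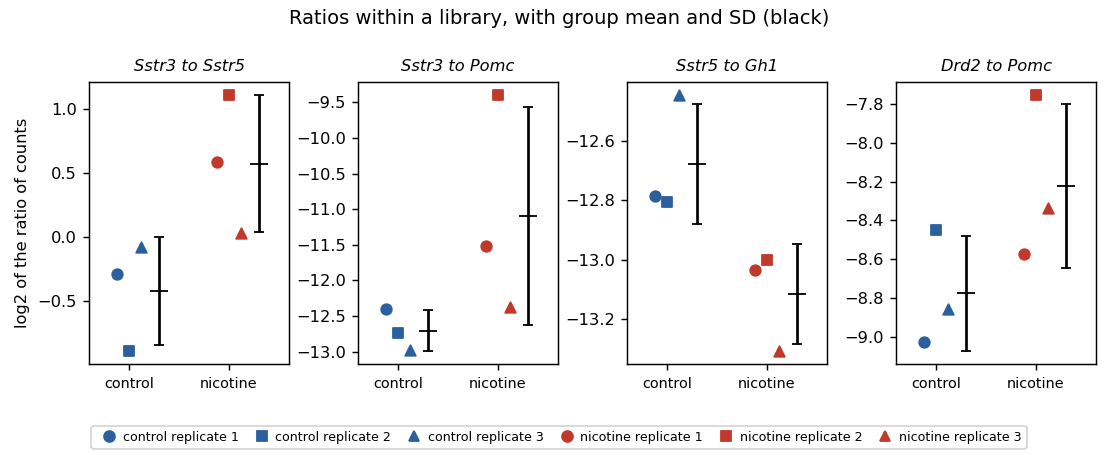
Log2 ratios of counts within a library for 4 gene pairs, by group, with group mean and SD in black (the vertical axes differ and do not start at 0). The groups are apart for Sstr3 to Sstr5, Sstr3 to Pomc and Sstr5 to Gh1 and overlap for Drd2 to Pomc.

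The library with the high Sstr3 level was also the highest in marker genes of several cell types, gonadotrophs among them. Lhb, the beta subunit of luteinizing hormone, was 216, 820 and 223 CPM after nicotine and 154, 75.6 and 125 CPM in controls. All 4 of the 4 gonadotroph markers (Lhb, Fshb, Gnrhr and Nr5a1) were highest in nicotine replicate 2, and their summed level was 708 to 1849 CPM in the nicotine and 523 to 826 CPM in the control libraries, with no marker at 0. The 4 of 4 posterior lobe markers (Avp, Oxt, Rax and Nkx2-1) were highest there too, with sums of 74.7 to 219 CPM against 5.86 to 71.2 CPM. The same held for the 3 of 3 somatotroph markers (Gh1, Ghrhr and Dlk1), with sums of 56017 to 125588 CPM against 55593 to 74978 CPM. It also held for Crhr1, Tbx19, Tgfa, Sox2 and Sox9 from other lists. The other tested genes of those lists, Pomc, Prl, Angpt1, S100b and Aldh1a2, were instead lowest in nicotine replicate 2. The thyrotroph markers Tshb and Trhr were lowest there too, and Dio2 was not. Over the 6 libraries Sstr3 and Lhb had a Pearson r of 0.96 on log2 CPM (exact permutation p = 0.0111, 0.244 after adjustment over 66 receptor and marker pairs) and a Spearman rho of 0.71. The r was 0.31 without nicotine replicate 2 and control replicate 2, so the relation rests on those libraries. The part of these cell types in the Sstr3 difference was not tested.

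Drd2 ran opposite to Pou1f1, the transcription factor shared by somatotrophs, lactotrophs and thyrotrophs. Pou1f1 was 412, 347 and 265 CPM after nicotine and 317, 305 and 251 CPM in controls, so the 2 libraries with the most Drd2 had the least Pou1f1. The Pearson r on log2 CPM was -0.95 (exact permutation p = 0.00833), Spearman's rho was -0.94 (exact permutation p = 0.0167), and r was -0.86 without the 2 libraries farthest in Drd2, replicate 3 of each group. The exact permutation p adjusted over the 66 pairs was 0.244 for r and 0.642 for rho. Sstr2 had the same adjusted p for r with Pou1f1 (r 0.91) and with Pomc (r -0.86). So did Drd4 and Sstr1 with Pax7 (r -0.88 and -0.90) and Sstr3 with Lhb. The hormone genes of somatotrophs, lactotrophs and thyrotrophs did not run opposite to Drd2, with an r of 0.02 for Gh1, 0.01 for Prl and 0.52 for Tshb. For the receptor genes Ghrhr and Trhr the r with Drd2 was -0.36 and -0.29. Melanotroph genes were highest in control replicate 3, the library with the most Drd2, where Pax7 was 93.6 CPM against 12.5 to 47.9 CPM elsewhere, but nicotine replicate 3, second in Drd2, had Pax7 at 18.8 CPM. Drd2 had an r of 0.62 and a rho of 0.77 with Pax7 (exact permutation p = 0.183 and 0.103, adjusted 0.576 and 0.749), and r was 0.75 without replicate 3 of each group. With Pomc it had an r of 0.71 and a rho of 0.71 (exact permutation p = 0.104 and 0.136, adjusted 0.441 and 0.749), and r was 0.08 without those libraries. The summed level of the 3 melanotroph markers (Pomc, Pax7 and Pcsk2), nearly all of it Pomc, was 20596 to 46542 CPM in the nicotine and 36256 to 72199 CPM in the control libraries.

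Among the 15 pairs of receptors, Drd2 and Sstr2 had the smallest p for a correlation, with an r of -0.83 (exact permutation p = 0.0472, 0.552 adjusted) and a rho of -0.77 (exact permutation p = 0.103). Without replicate 3 of each group the r was -0.38, so that the relation rests on those libraries.

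The libraries with higher Sstr2 included the 2 with high Crem, which encodes the cyclic AMP responsive element modulator and was named after its values were seen. Crem was 468, 75.1 and 83.6 CPM after nicotine and 104, 311 and 82.7 CPM in controls, highest in nicotine replicate 1 and control replicate 2. Those were also the 2 highest libraries for Sstr2, but nicotine replicate 2, nearly as high in Sstr2, was the lowest in Crem. Rgs2, a regulator of G protein signaling, was 92.0, 27.5 and 22.4 CPM after nicotine and 54.0, 103 and 25.9 CPM in controls. Over the 6 libraries r with Sstr2 was 0.75 for Crem and 0.69 for Rgs2. Without nicotine replicate 1 and control replicate 3 it was 0.47 for Crem and 0.44 for Rgs2. Neither was among the 64 genes of at least 10 CPM with an r over 0.9. With the marker Pou1f1 Sstr2 had an r of 0.91 (exact permutation p = 0.0167), and with Pomc an r of -0.86 (exact permutation p = 0.0222). Adjusted over the 66 receptor and marker pairs, both gave 0.244. Without those libraries these r were 0.67 and -0.77. Slc39a11, the only gene whose RefSeq span overlaps that of a receptor, here Sstr2, was highest in nicotine replicate 2 at 57.0 CPM and lowest in control replicate 3 at 26.8 CPM, with an r of 0.43 with Sstr2.

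**Figure D4:**
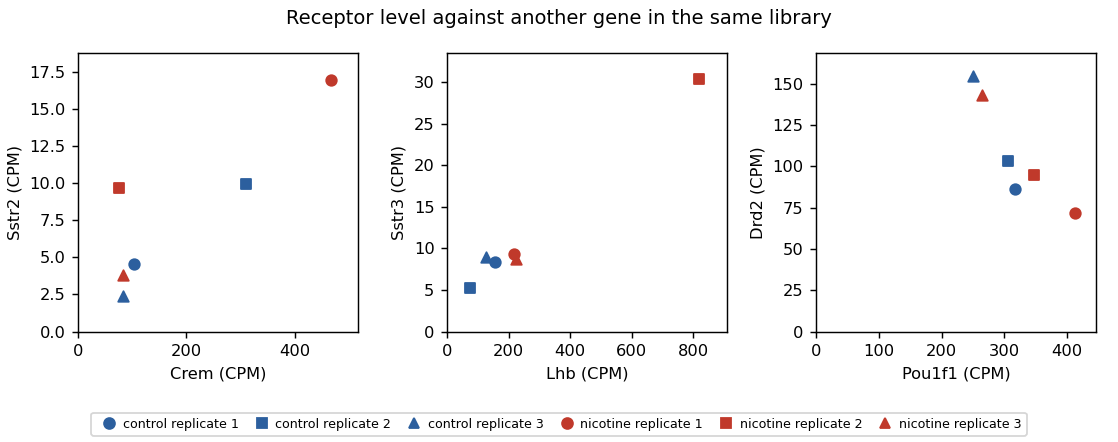
Level of a receptor against another gene in the same library, both in CPM, for Sstr2 and Crem, Sstr3 and Lhb, and Drd2 and Pou1f1, with 3 nicotine (red) and 3 control (blue) libraries. One library stands alone at 30.4 CPM of Sstr3 and 820 CPM of Lhb, and Drd2 is lowest where Pou1f1 is highest.

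Some genes followed a receptor closely over the 6 libraries, ranked by Pearson r of log2 CPM among genes of at least 10 CPM. The nearest were Rps28 for Drd2 (r 0.97), Me3 for Drd4 (0.98), Tor1a for Sstr1 (0.99), Znf8 for Sstr2 (0.99), Aplp1 for Sstr3 (0.998) and Ache, the gene of acetylcholinesterase, for Sstr5 (0.997). The number of genes with an r over 0.9 ranged from 15 for Drd2 to 383 for Sstr3. Aplp1 was 746, 1085 and 730 CPM after nicotine and 738, 643 and 755 CPM in controls, so it shared the high value of nicotine replicate 2 with Sstr3. With 6 libraries and this many genes such values describe the ranking only. Ache was 10.4, 19.0 and 13.0 CPM after nicotine and 14.7, 14.8 and 14.2 CPM in controls, close together among the controls, where Sstr5 was too.

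None of the genes of ligand supply, signaling and opposing receptors that were listed for this pathway was called either. Of 10 genes for the ligands and for dopamine supply, 7 were tested. Somatostatin (Sst, 42 counts in all), cortistatin (Cort, 9 counts) and the dopamine transporter (Slc6a3, 6 counts) were too low, and tyrosine hydroxylase (Th), which makes the dopamine precursor, had 124 counts. None of the 7 had an unadjusted p under 0.05, 3 were above and 4 below 0, and the median log2 fold change was -0.01. Maob, which degrades dopamine, averaged 36.6 ± 16.3 CPM in nicotine and 24.9 ± 5.78 CPM in control rats (SD, n = 3 each, log2 fold change 0.56, exact permutation p = 0.4), and Ddc, which makes dopamine, was 3.63 ± 0.610 and 4.82 ± 1.07 CPM (log2 fold change -0.39).

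All 18 G protein subunits passed the filter, and none had an unadjusted p under 0.05, with a median of 0.02. Gnai1, an inhibitory alpha subunit, was 19.9, 21.5 and 24.7 CPM after nicotine and 25.8, 27.3 and 29.6 CPM in controls. These groups did not overlap, and the log2 fold change was -0.33 (SE 0.16, adjusted p = 0.813 in edgeR's test, exact permutation p = 0.1). The groups of 2 further subunits did not overlap, in the opposite direction. Among all genes tested 11.3% had groups that did not overlap, in either direction. Gnai2, also an inhibitory alpha subunit, was 383, 512 and 402 CPM after nicotine and 364, 361 and 347 CPM in controls, with a log2 fold change of 0.27 (SE 0.18, adjusted p = 0.832 in edgeR's test, exact permutation p = 0.1). Gnb2, a beta subunit named after its values were seen, had a log2 fold change of 0.24 (adjusted p = 0.832 in edgeR's test). Gnao1, another inhibitory alpha subunit, averaged 127 ± 13.3 CPM in nicotine and 104 ± 18.2 CPM in control rats (SD, n = 3 each, log2 fold change 0.29). Gng10, a gamma subunit, had the lowest log2 fold change of the list, -0.39 (adjusted p = 0.809 in edgeR's test).

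Of 14 effectors, 10 were above and 4 below 0, with a median of 0.24, and 1 had an unadjusted p under 0.05, against 6.14% of all genes. That gene was Kcnj6, which encodes a G protein gated potassium channel subunit opened by these receptors, at 53.3, 68.3 and 47.1 CPM after nicotine and 41.0, 47.9 and 36.8 CPM in controls. Its groups overlapped by 1 library, and its log2 fold change was 0.43 (SE 0.18, adjusted p = 0.806 in edgeR's test, exact permutation p = 0.2). Adcy5 and Adcy3, adenylyl cyclases, had log2 fold changes of 0.35 and 0.51. The groups did not overlap for 1 of the 14 effectors, which was lower after nicotine, against 11.3% of all genes. Every effector above 0 except Ptpn6 was highest in nicotine replicate 2, the library furthest from the rest, as was Adcy7, which was below 0. How far the median of the effectors rests on that library was not tested.

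Among 27 receptor kinases, arrestins, RGS proteins (which speed the shut-off of G proteins) and receptor partners, the median was 0.03, 2 were higher and 1 lower at an unadjusted p under 0.05. Over all genes 3.13% were higher and 3.01% lower at such a p. Rgs9 averaged 59.7 ± 10.2 CPM in nicotine and 45.9 ± 3.67 CPM in control rats (SD, n = 3 each), which gave a log2 fold change of 0.38. Rgs7 averaged 39.1 ± 3.90 CPM and 50.3 ± 2.94 CPM (SD, n = 3 each), and its log2 fold change was -0.36. The groups did not overlap for either gene, and the adjusted p was 0.806 for both in edgeR's test. They were the only genes of the 27 whose groups did not overlap, against 11.3% of all genes. Rgs5, a gene also known from pericytes, averaged 13.7 ± 6.30 CPM in nicotine and 7.09 ± 1.25 CPM in control rats (SD, n = 3 each, log2 fold change 0.94, adjusted p = 0.760 in edgeR's test, exact permutation p = 0.2). The summed level of 3 smooth muscle and pericyte markers (Acta2, Myh11 and Pdgfrb) was 19.3 to 42.2 CPM in the nicotine and 15.0 to 21.4 CPM in the control libraries, and was highest in nicotine replicate 3, as Rgs5 was at 20.1 CPM. Its part in the Rgs5 difference was not tested.

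The stimulatory receptors, which oppose the 6 receptors by raising cyclic AMP or calcium, had the highest median of the lists. Of 9 tested, 8 were above 0, the median was 0.43, and 2 had an unadjusted p under 0.05, against 6.14% of all genes. The groups of 2 of the 9 did not overlap, against 11.3% of all genes. Ghrhr, Crhr1, Gnrhr, Adcyap1r1, Ghsr and Oxtr were highest in nicotine replicate 2, the library furthest from the rest, and Trhr, Vipr1 and Vipr2 were not. How far the median of this list rests on that library was not tested. Adcyap1r1, the receptor for the hypothalamic peptide PACAP, was 55.1, 73.5 and 66.7 CPM after nicotine and 45.6, 45.7 and 47.8 CPM in controls. Its groups did not overlap, and its log2 fold change was 0.49 (SE 0.16, adjusted p = 0.760 in edgeR's test, exact permutation p = 0.1). Gnrhr, the gonadotropin-releasing hormone receptor, was 34.2, 106 and 34.6 CPM after nicotine and 30.1, 25.3 and 21.0 CPM in controls, a log2 fold change of 1.20 (adjusted p = 0.760 in edgeR's test) to which nicotine replicate 2 added most. Trhr, the thyrotropin-releasing hormone receptor, was the 1 gene below 0, averaging 24.2 ± 7.26 CPM in nicotine and 34.5 ± 10.8 CPM in control rats (SD, n = 3 each, log2 fold change -0.52, exact permutation p = 0.3).

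**Figure D5:**
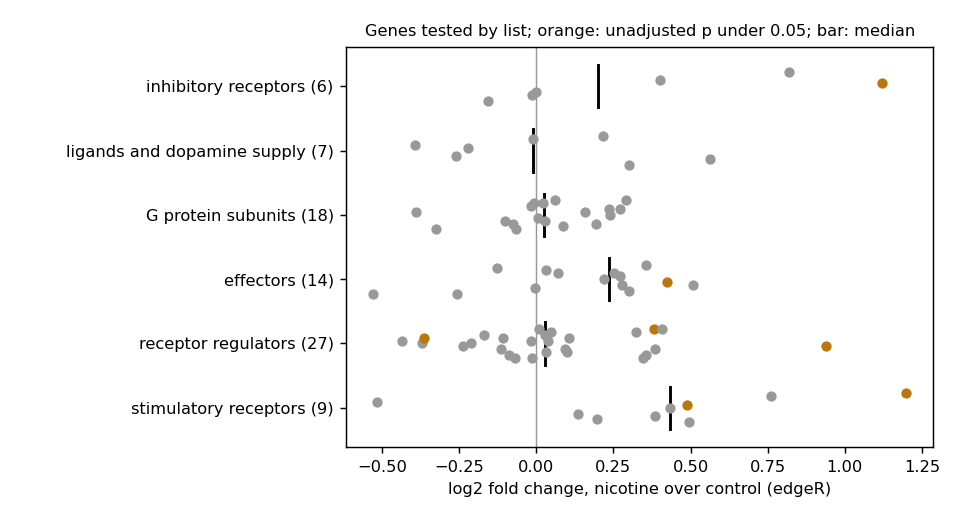
Log2 fold change of nicotine over control (horizontal axis) for each gene tested in the 6 receptors and 5 lists of related genes, with the number tested in brackets, the list median as a bar and genes with an unadjusted p under 0.05 in orange. The 6 orange genes besides Sstr3 are Kcnj6, Rgs5, Rgs7, Rgs9, Adcyap1r1 and Gnrhr, and the medians run from -0.01 to 0.43.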

How the data were processed

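Pituitary RNA from 3 nicotine and 3 control rats was sequenced in pairs from stranded libraries. The deposited values are whole-number counts per gene symbol, which the authors made with featureCounts after HISAT2 2.1.0 mapping to rn7, with the UCSC ncbiRefSeq annotation. The strand setting, the treatment of reads mapping to several places and whether reads or pairs were counted are not given in the sources used here.

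Counts were analysed in R 4.3.3. filterByExpr kept 17292 of 33294 genes, libraries were scaled by TMM, and groups were compared with edgeR 4.0.16 (quasi-likelihood, no covariate, Benjamini-Hochberg adjustment). Calls required an adjusted p below 0.1 together with a change of more than 1.5-fold. Alternatives used DESeq2 1.42.0, limma 3.58.1, other scalings and filters, thinning, a replicate block and leaving out each library. The procedure was checked on simulated data. Ratios used counts plus 0.5, only for genes with a mean count of at least 10. Correlations used log2 CPM with a prior count of 2. Poisson intervals are exact. Single values were compared by exact two-sided permutation over libraries, with a smallest p of 0.1 for 3 against 3. Labels do not say whether rats came from separate litters, so p-values measure the spread between these libraries. Typical variation between rats of a group was 23.6%.

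The receptors and gene lists were chosen with earlier results of these data known. Genes named are the receptors, the 3 genes of smallest p and the 2 most abundant of each list (some of them not described), markers, and the 3 genes most correlated with each receptor (the nearest is given). Crem, Gnb2, Rgs2, Slc39a11 and Th were named after their values were seen. Freq and Avpr1b were not analysed here. Promoter sequences come from RefSeq (GRCr8), and 6 of 6 receptors matched.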

Additional observations from a re-analysis of the deposited data

How the results depend on the processing

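No receptor was called under any alternative, and Drd4, Sstr2 and Sstr3 stayed above 0 in all of them. Against 0 genes called by edgeR, DESeq2 called 61, library sizes alone 1, no filter 2, limma voom with sample quality weights 1, and leaving out 1 library 0 to 9 (9 without nicotine replicate 3). With the replicate number as a block 2 genes were called and no receptor. Same-numbered libraries did not deviate together over all genes (r of 0.03, -0.20 and -0.08). With so few libraries these values cannot show whether the numbers pair the rats, and the labels do not say. The sign of small log2 fold changes turned. Sstr1 was -0.00053 with RLE scaling, -0.060 after thinning, -0.0060 without genes over 1% of counts and -0.045 with the replicate block. Sstr5 was 0.050 with library sizes alone and 0.00023 without a filter. Leaving out 1 library gave -0.47 to 0.12 for Drd2, -0.32 to 0.31 for Sstr1 and -0.41 to 0.22 for Sstr5. The causes were not tested. Sstr3 was 0.68 and Sstr2 0.31 with sample quality weights. Without 1 library, 1 to 4 of the 15 receptor ratios and 3 to 7 of the 24 ratios to markers had groups that did not overlap, against 1 and 2 with all libraries. With fewer libraries, groups separate more often without any group difference than the 0.1 that holds for 3 against 3. The counts without 1 library are therefore not comparable with those from all libraries. Drd4 could not be fitted with at least 10 counts required in every library. Drd4 had 6 to 27 counts per library, and thinning to the smallest library left its log2 fold change at 0.42.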
